A study of Mus musculus with 12 samples.

Results

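Intervals of histone acetylation that lay deep inside gene bodies were examined in mouse intestinal organoids. The mark was acetylation of lysine 27 on histone H3 (H3K27ac), mapped by CUT&RUN, in which a nuclease guided by an antibody releases the DNA beside the marked nucleosomes. A deep interval was an autosomal interval narrower than 8000 bp, called by SEACR, that lay within the span of a protein-coding gene and more than 10 kb from either end of every protein-coding gene span. The rule used position and width and no score. It selected 53342 of 166517 intervals (32.0%), in 6503 host genes, and 234 of them lay in more than one host. Their median width was 1731 bp, with 5th and 95th percentiles of 973 and 4595 bp. Together they covered 112 Mb, which was 16.0% of the 702 Mb of gene-body sequence that the rule could have drawn on. The intervals just inside the distance limit (10 to 11 kb from a gene end, 1581 intervals) had a median score of 0.115, and those just outside it (9 to 10 kb, 1664 intervals) had 0.116.

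As background, H3K27ac is placed by the acetyltransferases CBP and p300 and marks promoters and enhancers that are in use. The 5′ end of a gene carries its promoter. The interior of a long gene, mostly intron, holds enhancers, starts of shorter transcripts of the same gene, and starts of other RNAs. In the intestinal epithelium, enhancers of this kind are bound by factors such as HNF4A, CDX2 and TCF7L2, which act in absorptive and crypt cell identity.

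The organoids were grown from isolated crypts in Matrigel, in medium with EGF, Noggin, R-spondin, CHIR-99021 and Y-27632, which all groups shared. Wild type (WT) and Ptger4 knockout (KO) organoids each received vehicle, arachidonic acid (AA) at 25 µM or prostaglandin E2 (PGE2) at 50 nM, with 2 libraries in each of the 6 groups. AA is the fatty acid from which PGE2 is made, and Ptger4 encodes EP4, a PGE2 receptor that raises cAMP. The sample characteristics give day 3 and the treatment protocol 6 days. The compound is PGE2 in the sample labels and a dimethyl PGE2 in the series text. The labels give no age or strain of the mice and no account of the Ptger4 allele. Nothing in them ties replicate libraries to distinct mice or wells, and p-values thus measure only the spread between these libraries. Sequencing depth is unknown.

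1 library stood apart. In KO PGE2 replicate 2 the median score of the deep intervals was 0.0928, against 0.111 to 0.120 in the other 11 libraries. Its scores over the deep intervals had a mean Spearman correlation of 0.127 with those of the other libraries. KO PGE2 replicate 1 came next at 0.239, and the other 10 libraries lay between 0.269 and 0.334. At gene ends, 13 of 16 intestinal epithelial marker genes had an interval. Taking the strongest such interval of each gene, their median score was 0.179, against 0.155 over all genes with one. The corresponding medians were 0.124 for fibroblast markers (1 of 6 with an interval), 0.111 for immune (5 of 6), 0.1504 for endothelial (2 of 4) and 0.121 for neural markers (2 of 6).

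Few deep intervals held the start of an annotated transcript, and those that did were the more strongly acetylated ones. Of the 53342 intervals, 689 (1.29%) held at least 1 of 775 RefSeq starts, of which 410 belonged to protein-coding genes and 365 to long non-coding RNA genes. In 377 intervals it was a start of the host gene itself, that is, of a transcript shorter than the gene span, and in 312 it was a start of another gene only. Of the 3150 annotated starts in the deep gene-body sequence, 775 (24.6%) fell in a deep interval, which covered 16.0% of that sequence. Among CpG-rich starts (GC content of at least 50% and an observed to expected CpG ratio of at least 0.6 over the 300 bases from 250 before to 50 after the start) the share was 34.8% (142 of 408). Among the other starts it was 23.1% (633 of 2742).

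The sequences below are the 150 bases before the internal start of the host gene, read 5′ to 3′ on the strand of the gene, from RefSeq on GRCm38.p6, with each CpG in capitals. They are shown because the intervals that hold them are the strongest with a start of their own host (Zmynd8, Itgb6, Sec16b and Foxp1), hold an epithelial regulator (Hnf4a and Rnf43), passed the genotype test (Tsc22d1), had the largest genotype differences among the starts in the gene lists (Magi1 and Pde4b) or hold the most CpG sites among those written out (Shroom3).
Zmynd8 (chr2:165858174-165858323, minus strand): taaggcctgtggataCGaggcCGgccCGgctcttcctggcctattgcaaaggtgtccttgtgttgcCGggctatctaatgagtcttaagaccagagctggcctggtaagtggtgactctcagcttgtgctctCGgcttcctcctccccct
Shroom3 (chr5:92897843-92897992, plus strand): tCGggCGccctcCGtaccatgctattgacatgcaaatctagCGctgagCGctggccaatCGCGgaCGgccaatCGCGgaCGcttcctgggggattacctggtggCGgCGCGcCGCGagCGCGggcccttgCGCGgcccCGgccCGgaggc
Itgb6 (chr2:60673694-60673843, minus strand): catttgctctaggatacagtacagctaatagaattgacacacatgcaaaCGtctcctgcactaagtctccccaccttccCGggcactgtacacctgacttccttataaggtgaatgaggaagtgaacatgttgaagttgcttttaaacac
Sec16b (chr1:157526020-157526169, plus strand): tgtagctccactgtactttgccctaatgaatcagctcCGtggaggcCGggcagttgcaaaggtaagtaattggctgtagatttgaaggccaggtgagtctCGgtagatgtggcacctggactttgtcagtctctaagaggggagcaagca
Foxp1 (chr6:99266516-99266665, minus strand): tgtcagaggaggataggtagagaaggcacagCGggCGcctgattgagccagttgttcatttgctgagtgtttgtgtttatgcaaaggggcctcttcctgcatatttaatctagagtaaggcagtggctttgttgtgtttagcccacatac
Hnf4a (chr2:163547005-163547154, plus strand): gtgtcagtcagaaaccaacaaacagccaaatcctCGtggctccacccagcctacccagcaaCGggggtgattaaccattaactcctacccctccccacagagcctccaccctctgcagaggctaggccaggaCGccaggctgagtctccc
Rnf43 (chr11:87699747-87699896, plus strand): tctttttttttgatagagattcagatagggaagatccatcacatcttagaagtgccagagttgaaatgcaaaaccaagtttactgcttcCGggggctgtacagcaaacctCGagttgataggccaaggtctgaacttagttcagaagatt
Tsc22d1 (chr14:76488286-76488435, plus strand): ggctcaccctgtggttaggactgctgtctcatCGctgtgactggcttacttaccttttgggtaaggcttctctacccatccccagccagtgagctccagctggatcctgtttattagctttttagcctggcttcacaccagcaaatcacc
Magi1 (chr6:93912964-93913113, minus strand): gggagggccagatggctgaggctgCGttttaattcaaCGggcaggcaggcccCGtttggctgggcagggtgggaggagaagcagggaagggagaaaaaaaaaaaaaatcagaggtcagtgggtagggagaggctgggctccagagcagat
Pde4b (chr4:102569910-102570059, plus strand): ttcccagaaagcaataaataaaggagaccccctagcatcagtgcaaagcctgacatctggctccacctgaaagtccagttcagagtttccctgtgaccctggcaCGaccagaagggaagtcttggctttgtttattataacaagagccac

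The Zmynd8 and Shroom3 starts were CpG-rich, with 17 and 37 CpG dinucleotides in the 300 bases around the start, and the other 8 were not. Zmynd8 encodes a reader of acetylated and methylated histones, and Shroom3 an actin-binding protein of apical constriction. Itgb6 encodes an epithelial integrin subunit that activates latent TGF-β, Sec16b a scaffold of endoplasmic reticulum exit sites, and Foxp1 a forkhead transcription factor. The other hosts are described with their values. All 10 intervals lay at least 17.3 kb from a gene end, and the Foxp1 interval lay 255 kb from one.

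The Zmynd8 interval (chr2:165854159-165859867) had the highest mean score of the 377, at 0.313. Its scores in WT were 0.255 and 0.360 with vehicle, 0.307 and 0.327 with AA, and 0.422 and 0.329 with PGE2. In KO they were 0.313 and 0.342, 0.245 and 0.277, and 0.341 and 0.240. The genotypes overlapped, and every library lay above the highest library median of all deep intervals (0.120). The Itgb6 interval (chr2:60670814-60675483, mean 0.311) ranged from 0.306 to 0.362 in WT and from 0.179 to 0.334 in KO, and the Sec16b interval (chr1:157524082-157528864, mean 0.302) from 0.300 to 0.347 and from 0.164 to 0.360. The Foxp1 interval (chr6:99263608-99267741, mean 0.296) ranged from 0.273 to 0.331 and from 0.173 to 0.319. In Itgb6, Sec16b and Foxp1 the lowest value was that of KO PGE2 replicate 2.

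Several internal starts belonged to genes of epithelial identity and of the AA and PGE2 pathway. Hnf4a encodes the nuclear receptor that drives enterocyte genes. Its internal start, 22.1 kb inside the gene (chr2:163546057-163550776), scored 0.266 ± 0.0248 in WT (SD, n = 6) and 0.196 ± 0.0374 in KO (SD, n = 6). The WT libraries (0.229 to 0.297) and the KO libraries (0.132 to 0.239) overlapped, and the difference of -0.36 ± 0.10 (SE, log2) did not pass (limma adjusted p = 0.251). Rnf43 encodes the ubiquitin ligase that removes Frizzled receptors and so restrains Wnt signalling. Its internal start (chr11:87699341-87703356) scored 0.237 to 0.316 in WT and 0.149 to 0.214 in KO, without overlap. The difference of -0.51 ± 0.10 (SE, log2) did not pass over all intervals (limma adjusted p = 0.0748).

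The internal start of Pde4b, which encodes a phosphodiesterase that breaks down cAMP, lay in an interval (chr4:102569176-102571440) that scored 0.115 to 0.229 in WT and 0.0410 to 0.124 in KO. The 2 ranges overlapped, and the difference was -0.85 ± 0.19 (SE, log2, limma adjusted p = 0.102). The internal start of Magi1, a scaffold of tight junctions, lay 236 kb from a gene end (chr6:93911367-93913495) and scored 0.0761 to 0.159 in WT and 0.0240 to 0.0410 in KO. These ranges did not overlap, and the difference of -0.999 ± 0.23 (SE, log2) did not pass (limma adjusted p = 0.123). At Pla2g4a, the phospholipase that releases AA from membranes, the internal start (chr1:149918621-149923724) scored 0.224 ± 0.0348 in WT and 0.202 ± 0.0182 in KO (SD, n = 6 each). Magi1 and Pde4b were chosen for the size of their difference, so that size adds nothing. Other internal starts went either way and did not pass. KO minus WT was 0.24 and 0.42 (log2) at 2 starts of Patj, 0.14 at Acaca, 0.052 at Pde4a and 0.037 at Scp2. It was -0.35 at Mecom, -0.31 at Tcf7l2, -0.21 at Abcc4 and -0.15 at Pparg.

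The letters around these starts were searched on both strands for 6 short motifs over the same 300 bases. The GC box GGGCGG was in 26.7% of the 775 starts in deep intervals, in 17.9% of the deep starts outside them and in 36.0% of all 31396 autosomal starts. The AP-1 letters TGANTCA were in 11.4%, 8.38% and 7.84%, and the HNF4 letters CAAAGTCCA in 1.16% (9 starts), 0.295% and 0.487%. The TATA box TATAAA (13.5%, 14.99% and 13.6%), CCAAT (34.2%, 33.9% and 37.3%) and the cAMP response element TGACGTCA (1.55%, 0.758% and 1.83%) are given for comparison. Of the starts shown, Sec16b held the CCAAT, AP-1 and HNF4 letters. A match describes the letters and is not evidence of binding.

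Some deep intervals also held microRNA hairpins. Of 222 hairpins in the deep gene-body sequence, 37 lay in 36 deep intervals. That share was near the 16.0% of this sequence that the deep intervals covered. The median mean score of the 36 was 0.129, and 35 of the 37 hairpins had a mature sequence to match. Of the intervals whose hairpin had a mature sequence, the highest held both Mir194-1 and Mir215, within Iars2, the mitochondrial isoleucine tRNA synthetase (chr1:185306886-185314482). Both microRNAs are known for high levels in intestinal epithelium. Their mature sequences, from RefSeq, are given with the seed (bases 2 to 8) in capitals.
mmu-miR-194-5p: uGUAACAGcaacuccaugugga
mmu-miR-194-1-3p: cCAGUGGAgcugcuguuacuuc
mmu-miR-215-5p: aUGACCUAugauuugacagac
mmu-miR-215-3p: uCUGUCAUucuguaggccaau

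The 4 seeds differ from each other. The interval scored 0.236 to 0.323 in WT and 0.181 to 0.253 in KO, with means of 0.284 ± 0.0371 and 0.221 ± 0.0233 (SD, n = 6 each). The ranges overlapped, and the difference of -0.29 ± 0.10 (SE, log2) did not pass (limma adjusted p = 0.353). The lowest of the 12 values was again KO PGE2 replicate 2.

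Over all 12 libraries the deep intervals were less acetylated than intervals at gene ends and slightly more than intervals far from genes. The median score of the 53331 deep intervals tested was 0.114 ± 0.00713 (mean and SD of 12 library medians). For 19677 intervals within 2 kb of a gene end it was 0.136 ± 0.0116, and for 35138 intervals more than 50 kb from any protein-coding gene it was 0.1105 ± 0.00765. On the scale of log2(score + 0.0579) the deep median lay below that of gene ends by 0.18 ± 0.045 (SD), in 12 of 12 libraries. It lay above the intergenic median by 0.030 ± 0.018 (SD), in 11 of 12, the exception being WT vehicle replicate 1. At matched widths of 1000 to 3000 bp the 2 gaps were -0.11 ± 0.031 and 0.029 ± 0.017.

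**Figure D1:**
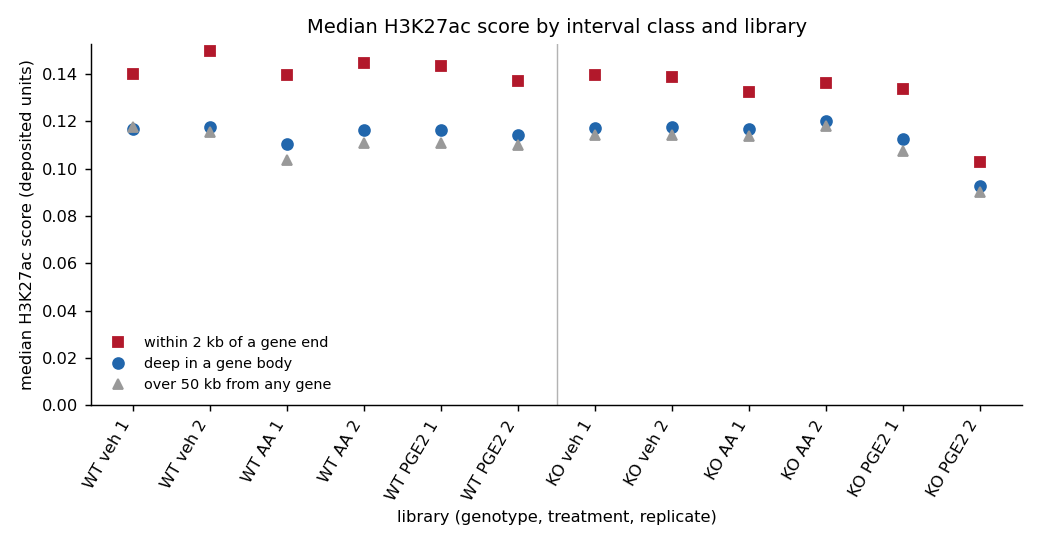
Median H3K27ac score (y axis, deposited units) in each of the 12 libraries (x axis) for intervals at gene ends (squares), deep in gene bodies (circles) and over 50 kb from genes (triangles). The gene-end median is the highest in all 12 libraries, and all 3 classes are lowest in KO PGE2 replicate 2.

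The gap between the gene ends and the deep intervals was narrower in KO. In WT libraries it ran from -0.24 to -0.18 on the log2 scale (mean -0.21 ± 0.026, SD, n = 6), and in KO libraries from -0.17 to -0.091 (mean -0.14 ± 0.033, SD, n = 6), without overlap. The narrowest gap was that of KO PGE2 replicate 2, the library with the lowest scores. The KO AA libraries, at -0.12 and -0.13, were next. The nearest libraries of the 2 genotypes were WT PGE2 replicate 2 (-0.178) and KO vehicle replicate 1 (-0.172). At matched widths of 1000 to 3000 bp the genotypes overlapped. There WT ran from -0.17 to -0.10 (mean -0.14 ± 0.022) and KO from -0.11 to -0.064 (mean -0.091 ± 0.019, SD, n = 6 each). The gap is a description of library medians and was not tested.

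Intervals with a start of their host or with a CpG-rich start scored above gene ends, and by less where widths were matched. The gene ends here are 5′ and 3′ ends together, and no comparison with 5′ ends alone is given. The median for the 377 with a start of their host was 0.151 ± 0.0144 (SD of 12 libraries), for the 312 with a start of another gene only 0.134 ± 0.0111, and for the 52642 with no annotated start 0.114 ± 0.0071. The 118 intervals with a CpG-rich start had 0.164 ± 0.0191. Intervals with a start of the host lay above gene ends by 0.10 ± 0.018 and above deep intervals with no start by 0.28 ± 0.060 (log2, SD), each in 12 of 12 libraries. These intervals were also wider, with a median of 2716 bp against 1726 bp. At 1000 to 3000 bp, the 381 with any start still lay above the others in 12 of 12 libraries, by 0.12 ± 0.036. Against gene ends of the same widths (0.122 ± 0.00899) they did not separate: their median was 0.123 ± 0.00956 and the gap 0.0084 ± 0.020, higher in 9 of 12 libraries. The 199 with a start of the host had 0.128 ± 0.0108 at these widths, a gap of 0.044 ± 0.029 in 12 of 12 libraries. Width itself went with level: the median score was 0.106 under 1 kb, 0.104 at 1 to 2 kb, 0.124 at 2 to 4 kb and 0.151 at 4 to 8 kb.

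**Figure D2:**
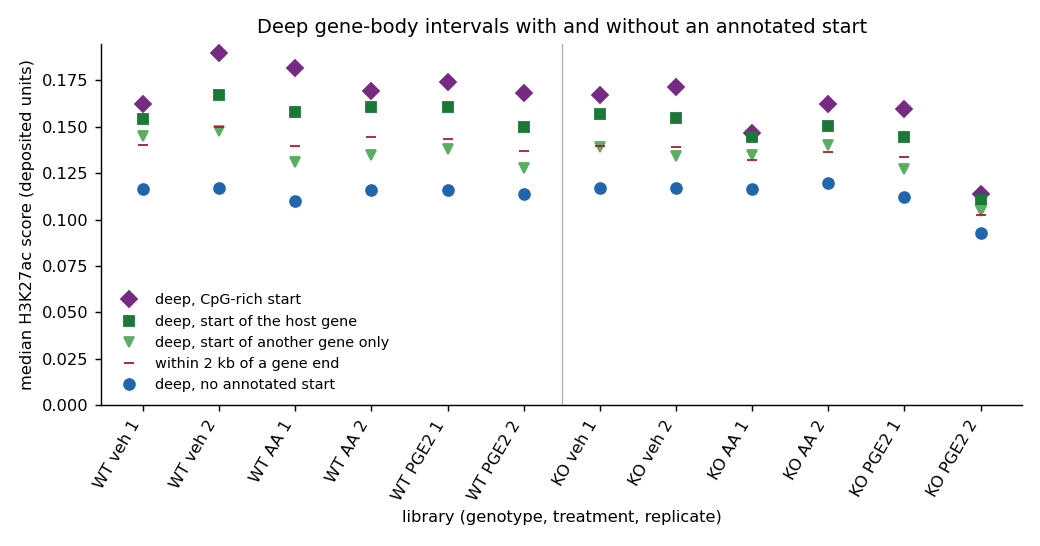
Median H3K27ac score (y axis, deposited units) by library (x axis) for deep intervals split by the annotated start they hold, with the gene-end median (5′ and 3′ ends together) as dashes. Deep intervals with a start of the host gene lie above the gene-end median and above deep intervals without a start in all 12 libraries.

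Nearness to a start without holding it went with a smaller difference. Deep intervals up to 2 kb from the nearest start, but not holding it, had a median of 0.118 (950 intervals), those at 2 to 5 kb 0.117, those at 10 to 50 kb 0.115, and those over 50 kb away 0.112 (23705 intervals). Levels differed little with distance to the ends of the gene span. The medians were 0.114 at 10 to 20 kb, 0.115 at 20 to 50 kb and at 50 to 100 kb, 0.111 at 100 to 200 kb and 0.112 beyond 200 kb. Intervals over 100 kb from an end lay below those at 10 to 20 kb by 0.019 ± 0.019 (log2, SD), in 11 of 12 libraries, a mean no larger than its spread.

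The 2 sides of a gene also differed close to its ends. For the 42130 deep intervals with 1 host of known strand, those 10 to 20 kb from the 5′ end of the host scored 0.116 (4904 intervals) and those as far from the 3′ end 0.111 (4795 intervals). The 5′ side was higher in 12 of 12 libraries, by 0.042 ± 0.016 (log2, SD). At 20 to 50 kb the medians were 0.117 and 0.114, and at 50 to 100 kb 0.116 and 0.115.

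Host genes ranged widely in how much of their interior was marked. The median host had 4 deep intervals, 1485 hosts had 1 and 1640 had 10 or more. The hosts with the most were very long genes: Macrod2 (an ADP-ribosylhydrolase, 255 intervals), Fhit (a dinucleoside hydrolase at a common fragile site, 253), Auts2 (a Polycomb-associated regulator, 205), Pde4d (a cAMP phosphodiesterase, 197), Ptprd (a receptor phosphatase, 171), Rbms3 (an RNA-binding protein, 128), Adgrl3 (an adhesion receptor, 121) and Rarb (a retinoic acid receptor, 116). Length did not set the density. Auts2 and Rarb held 18.9 and 18.4 deep intervals per 100 kb of deep span, Ptprd 7.60, and all hosts together 7.60. The deep intervals covered 44.7% of the deep span of Rarb and 16.9% of that of Ptprd.

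Across the 3163 hosts with at least 50 kb of deep span, density and median level had a Spearman correlation of 0.72, and length and density one of -0.20. The hosts share libraries and the same interval calls, so these are descriptions. Between the interior of a gene and its ends the relation was looser. In 2408 hosts with at least 5 deep intervals and an interval at an end, the Spearman correlation of the 2 levels was 0.23. The interior lay below the end in 2001 (83.1%). The median level was 0.118 in the interior and 0.155 at the ends. The latter is near the median of the strongest end interval over all genes (0.155), and above that of all gene-end intervals (0.136). Setting a strongest end interval against an interior level favours a lower interior, so the share is only a description.

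Among hosts with at least 10 deep intervals, the highest median levels were in Slc16a12 (a creatine transporter, 0.164), Zfp608 (a zinc finger protein, 0.162), Exph5 (a Rab27 effector, 0.162), Aff1 (a subunit of the super elongation complex, 0.159), Aldh1a1 (a retinaldehyde dehydrogenase, 0.159) and Arid5b (a chromatin regulator, 0.158). Their deep intervals covered from 34.4% (Arid5b) to 63.4% (Slc16a12 and Exph5) of the deep span. The lowest were in Dlgap2 (0.0680), Trpm3 (0.0681), Cdh13 (0.0685), Tenm2 (0.0743), Nkain2 (0.0744) and Sntg1 (0.0746), which are known mainly from neurons and other excitable or adhesive cells. In these the deep intervals covered from 1.27% (Cdh13) to 2.63% (Dlgap2). In Exph5 the WT mean was 0.181 ± 0.012 and the KO mean 0.147 ± 0.026 (SD, n = 6), and in Aldh1a1 they were 0.156 ± 0.015 and 0.159 ± 0.020.

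Hosts were also grouped by 10 gene lists, which differed more in the density of deep intervals than in their level. Genes of gut epithelial identity, junctions and brush border had 847 deep intervals in 39 hosts, 12.7 per 100 kb, with a median level of 0.124 ± 0.00965 (SD of 12 libraries). Wnt and crypt stem cell genes had 432 in 30 hosts, 12.6 per 100 kb, at 0.122 ± 0.00864. Neuronal adhesion and synapse genes had 1367 in 73 hosts over 67.8 Mb, 2.02 per 100 kb, at 0.0969 ± 0.00450, and fibroblast, immune and endothelial genes 354 in 42 hosts, 3.68 per 100 kb, at 0.101 ± 0.00821. All deep intervals together had 7.60 per 100 kb and 0.114 ± 0.00713. In bulk libraries fewer cells with the mark and less of it per cell cannot be told apart.

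The remaining lists lay between. Widely expressed chromatin regulators had 10.7 per 100 kb at 0.115, Hippo, TEAD and AP-1 genes 10.2 at 0.120, PGE2 and cAMP signalling genes 9.05 at 0.116, very long genes of fragile sites 7.02 at 0.120, AA and fatty acid metabolism genes 6.84 at 0.115, and EGF and growth factor receptor genes 6.12 at 0.123. Every list had its lowest library median at or below 0.101.

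**Figure D3:**
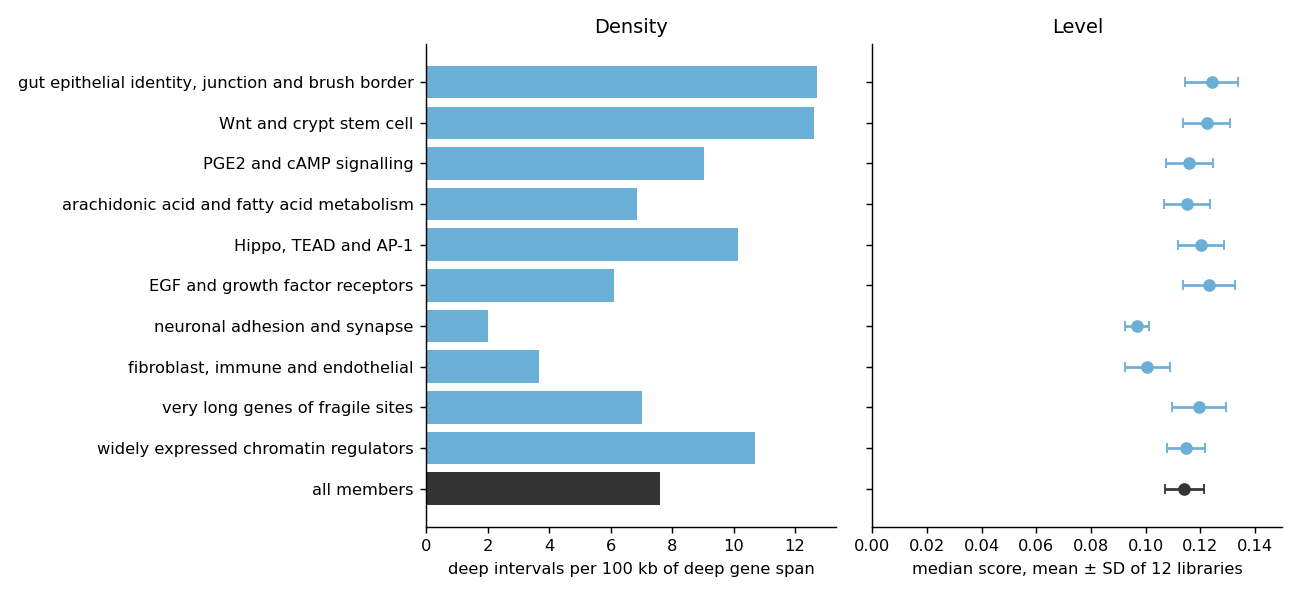
Deep intervals per 100 kb of deep gene span (left, bars) and median H3K27ac score as the mean ± SD of 12 library medians (right, points) for hosts in 10 gene lists and for all deep intervals (dark). Density runs from 2.02 in the neuronal list to 12.7 in the gut epithelial list, and levels from 0.0969 to 0.124 in the same 2 lists.

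Within the epithelial list, Mecom (a zinc finger transcription factor) held 92 deep intervals, Pard3b 86 and Pard3 79, the last a polarity protein of tight junctions. The strongest deep interval of the list was in Tjp1, the tight junction protein ZO-1 (chr7:65466133-65471498). It scored 0.331 ± 0.0497 in WT and 0.268 ± 0.0551 in KO (SD, n = 6 each), with overlapping ranges (limma adjusted p = 0.423). In the Wnt list Tnik (a kinase of the TCF4 complex) held 69, Msi2 (an RNA-binding protein of progenitor cells) 54 and Gsk3b (the kinase that marks β-catenin for destruction) 29. The strongest was in Msi2 (chr11:88611721-88615969), at 0.332 ± 0.0397 in WT and 0.255 ± 0.0394 in KO. The WT values ran from 0.294 to 0.398 and the KO values from 0.183 to 0.298, an overlap at the edges (limma adjusted p = 0.235).

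In the PGE2 and cAMP list the hosts with the most deep intervals were Pde4d (197), Akap13 (an anchor of protein kinase A, 49) and Abcc4 (an exporter of cAMP and prostaglandins, 37). The strongest was in Abcc4 (chr14:118655438-118659083), with 0.292 ± 0.0385 in WT and 0.241 ± 0.0563 in KO. In the AA and fatty acid list they were Plcb1 (a phospholipase C, 40), Acaca (acetyl-CoA carboxylase, 37) and Osbpl3 (a lipid transfer protein, 24), and the strongest was in Osbpl3 (chr6:50380375-50385814), at 0.276 ± 0.0342 and 0.222 ± 0.0389. In the Hippo list they were Stk3 (a Hippo kinase, 36), Tead1 (the DNA-binding partner of YAP, 35) and Wwtr1 (the coactivator TAZ, 13), and in the growth factor list Ptk2 (focal adhesion kinase, 36), Gab2 (an adaptor, 28) and Egfr (22). The ranges of WT and KO overlapped in Abcc4 and Osbpl3, as in Insr, the insulin receptor, whose interval was the strongest of the growth factor list (0.277 ± 0.125 and 0.203 ± 0.0470).

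Among the lists of other tissues, the neuronal hosts with the most were Ptprd (171), Cntnap2 (a neurexin family protein, 93) and Kcnh7 (a potassium channel, 84). Kcnh7 alone reached 17.9 per 100 kb, and Cntnap2, of similar size to Ptprd, held 4.19. Lama2 (a laminin, 36), Cald1 (an actin regulator, 28) and Col19a1 (a collagen, 27) led the fibroblast, immune and endothelial list. Arid1b (a subunit of the BAF complex, 61), Hdac4 (a histone deacetylase, 43) and Mllt3 (a reader of acylated histones, 41) led the chromatin list, whose strongest interval was in Tnrc6b (chr15:80741428-80747007, 0.236 ± 0.0227 in WT and 0.206 ± 0.0237 in KO). The strongest deep intervals of the neuronal list, in Cntnap5b (690 bp), and of the fibroblast, immune and endothelial list, in Dock2 (381 bp), were narrow. Their scores were spread from 0.115 to 0.408 and from 0.0455 to 0.533 over the 12 libraries.

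The very highest scores were of another order. An interval of 1101 bp in Chl1, a neural adhesion molecule (chr6:103648655-103649756), scored from 76.6 to 151, against a 99th percentile of 0.215 over all deep intervals. An interval in 2210408I21Rik (chr13:77438415-77439172) scored from 2.58 to 13.0. Only these 2 had a mean above 1. The next 8 were in Kctd16, Vps45, Smo, Lama1, the pair Cmss1 and Filip1l, Mogat1, Mdga2 and Aven, with means from 0.957 down to 0.432. None of the 10 held an annotated start. KO PGE2 replicate 2, the lowest library in the median, had the highest score in Chl1 (151), 2210408I21Rik (13.0), Lama1 (1.55) and Mdga2 (0.798), at 1.73, 3.78, 2.14 and 1.85 times the median of the other libraries. With these included, the strongest 1% of the deep intervals (534) had a median width of 3904 bp, and 41 of them (7.68%) held an annotated start, against 1.29% of all. A second caller, MACS2, gave 702 intervals, of which 111 (15.8%) overlapped 109 deep intervals with a median score of 0.207.

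Comparing KO with WT over the 3 treatments together, 12 of the 53331 deep intervals tested passed (limma, adjusted p under 0.05), 3 of them higher and 9 lower in KO, or 0.0225%. Over all intervals tested 0.0427% passed (71 of 166471), so the share among deep intervals was not above the background. The higher ones lay in Btaf1, Dlg2 and Ide. The lower ones lay in Cradd, Mbnl1, Tead1, Tsc22d1, Myo3a, Myof, Cers6, Ski, and the overlapping genes Cmss1 and Filip1l. At an unadjusted p under 0.05 there were 1308 higher and 2872 lower, 7.84% of the deep intervals, against 9.11% of all intervals and 13.2% of those at gene ends.

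The count depended on which libraries entered. The count rose when either KO PGE2 replicate was left out, and fell when any other library was. Each such fit has 1 library in 1 group. The matching shares over all intervals are not given for these fits or for the other alternatives here. These counts thus describe only how far the calls moved, and not a trait of deep intervals. The count was 0 when the prior variance was not allowed to follow the mean score, and quantile normalization gave 10, with 4 higher and 6 lower. Without the PGE2 libraries of both genotypes it was 4 (1 higher and 3 lower), of which 2, in Ide and in Cmss1 and Filip1l, were among the 12. With vehicle alone no deep interval passed (0 of 53331, and 2431 at an unadjusted p under 0.05), and 1 of all intervals did (0.000601%). Every call also missed the threshold in some alternatives. Of 22 run for each, Btaf1 missed it in 5, Cmss1 and Filip1l in 9, Ide in 10 and Mbnl1 in 11. Tsc22d1 missed it in 13, Tead1 and Ski in 14, Cers6 in 15, and Myo3a and Myof in 17. Of 21 each, Cradd missed it in 7 and Dlg2 in 11.

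**Figure D4:**
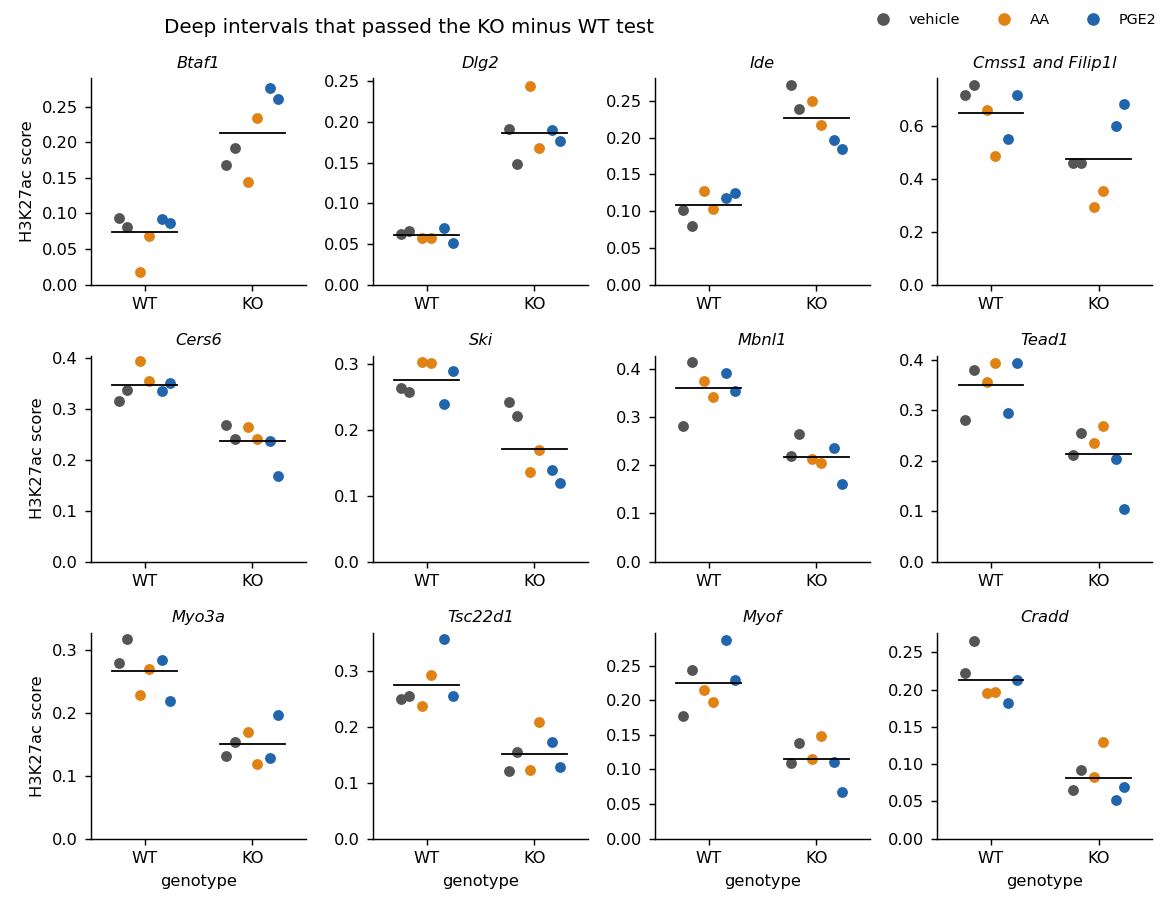
H3K27ac scores (y axes from 0, deposited units) of the 12 deep intervals that passed the KO minus WT test, in WT and KO libraries (x axes), with 1 point per library coloured by treatment and a line at the mean of each genotype. WT and KO overlap in Ski and in Cmss1 and Filip1l. The 12 were chosen by this same test, which favours separation, so the separation adds nothing to it.

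The lowest adjusted p was at an interval in Cradd, which encodes a death-domain adaptor of caspase-2 (chr10:95263800-95267145, 57.0 kb from a gene end). In WT it scored 0.222 and 0.266 with vehicle, 0.195 and 0.197 with AA, and 0.182 and 0.213 with PGE2. In KO it scored 0.0652 and 0.0916, 0.0827 and 0.130, and 0.0526 and 0.0694. Every WT library lay above every KO library. Absence of overlap was part of the rule for naming the calls, so here and below it adds nothing to the test. The change was -0.97 ± 0.15 (SE, log2, limma adjusted p = 0.00814), and in the other 18 deep intervals of Cradd the median change was -0.049.

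The interval in Mbnl1, an RNA-binding regulator of splicing (chr3:60498145-60501109), lay 0.070 kb from an annotated start. In WT it scored 0.280 and 0.415 with vehicle, 0.374 and 0.342 with AA, and 0.392 and 0.353 with PGE2. In KO it scored 0.218 and 0.264, 0.214 and 0.204, and 0.235 and 0.161. The genotypes did not overlap, and the change was -0.61 ± 0.10 (SE, log2, limma adjusted p = 0.0145). Of the other 27 deep intervals of Mbnl1, 13 were lower in KO.

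Tead1 is the only host of the Hippo list with a call. Its interval (chr7:112704709-112706988) is also the strongest of that list. In WT it scored 0.280 and 0.379 with vehicle, 0.356 and 0.394 with AA, and 0.295 and 0.393 with PGE2. In KO it scored 0.211 and 0.255, 0.235 and 0.269, and 0.204 and 0.104. The change was -0.61 ± 0.11 (SE, log2, limma adjusted p = 0.0360), and 25 of the other 34 deep intervals of Tead1 were lower in KO, with a median of -0.13. Over all deep intervals 44.4% were higher in KO, and intervals of 1 host are not independent.

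The Tsc22d1 interval (chr14:76487101-76490064) was the only one of the 12 that held an annotated start, that of a shorter Tsc22d1 transcript whose upstream sequence is shown above. Tsc22d1 encodes a leucine zipper protein induced by TGF-β. In WT it scored 0.249 and 0.255 with vehicle, 0.238 and 0.293 with AA, and 0.357 and 0.255 with PGE2. In KO it scored 0.122 and 0.154, 0.123 and 0.208, and 0.173 and 0.128. Every KO library lay below every WT library, and the change was -0.67 ± 0.12 (SE, log2, limma adjusted p = 0.0360).

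In Myo3a, an unconventional myosin with a kinase domain (chr2:22587072-22590557), WT libraries ranged from 0.218 to 0.318 and KO libraries from 0.118 to 0.197. The change was -0.64 ± 0.12 (SE, log2, limma adjusted p = 0.0414), while 12 of the other 35 deep intervals of Myo3a were lower in KO. Dlg2, a synaptic scaffold protein, is a host of the neuronal list. Its interval (chr7:90702946-90704965), 227 kb from a gene end, ranged from 0.0509 to 0.0696 in WT and from 0.148 to 0.244 in KO. The WT values lay near the pseudocount, and the change was 1.03 ± 0.17 (SE, log2, limma adjusted p = 0.0148). Of the other 47 deep intervals of Dlg2, 29 were higher in KO, with a median of 0.079.

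4 of the 12 fell outside the rule for naming intervals and were named after their values were seen. In Myof, a ferlin of membrane repair, the score was 0.225 ± 0.0383 in WT and 0.115 ± 0.0280 in KO (limma adjusted p = 0.0485). In Cers6, a ceramide synthase, it was 0.348 ± 0.0263 and 0.237 ± 0.0362 (limma adjusted p = 0.0487). In Ski, a corepressor of TGF-β signalling, it was 0.276 ± 0.0261 and 0.171 ± 0.0502 (limma adjusted p = 0.0365), and KO vehicle replicate 1 (0.243) lay above the lowest WT library (0.240). In Cmss1 and Filip1l it was 0.650 ± 0.108 and 0.476 ± 0.147 (limma adjusted p = 0.0202). There the difference was -0.62 with vehicle, -0.72 with AA and 0.024 with PGE2.

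The calls in Btaf1 and Ide lay on chromosome 19 within 2 runs of consecutive intervals that were higher in KO. Btaf1 encodes an ATPase that removes the TATA-binding protein from DNA, and Ide the insulin-degrading enzyme. The Btaf1 interval (chr19:36942554-36943563) ranged from 0.0182 to 0.0938 in WT and from 0.144 to 0.277 in KO, and the change was 1.06 ± 0.17 (SE, log2, limma adjusted p = 0.00908). The Ide interval (chr19:37283805-37286230) ranged from 0.0801 to 0.127 in WT and from 0.185 to 0.271 in KO, and the change was 0.77 ± 0.13 (SE, log2, limma adjusted p = 0.0165). Neither overlapped between genotypes.

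Each stretch was bounded, after its values were seen, as the run of consecutive intervals with a KO minus WT change above 0.5 (log2). The first (chr19:36913654-36973284, 59.6 kb) held 14 intervals, of which 5 passed and 5 were deep. Their changes ran from 0.60 to 1.06, and the neighbours on the 2 sides had 0.050 and 0.14. Farther out, intervals 64.0 and 80.1 kb from the called Btaf1 interval had 0.42 and 0.52, and the next, at 85.9 kb, had -0.012. The second (chr19:37235129-37379660, 145 kb) held 25 intervals, of which 11 passed and 2 were deep, with changes from 0.56 to 1.14 and neighbours at -0.25 and -0.24. Of the 7 deep intervals of Btaf1, the 5 inside the first stretch changed by 0.60 to 1.06 and the 2 outside it by 0.14 and 0.15. Averaged over the first stretch the score was 0.0857 ± 0.00575 in WT and 0.195 ± 0.0184 in KO, and over the second 0.0937 ± 0.00689 and 0.201 ± 0.0162 (SD, n = 6 each). The bounding rule itself selects for a higher score in KO, so these means only describe the runs. The scores cannot tell more of the mark from more copies of the DNA. Whether the WT and KO organoids differed in DNA copy number in these stretches was not tested.

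**Figure D5:**
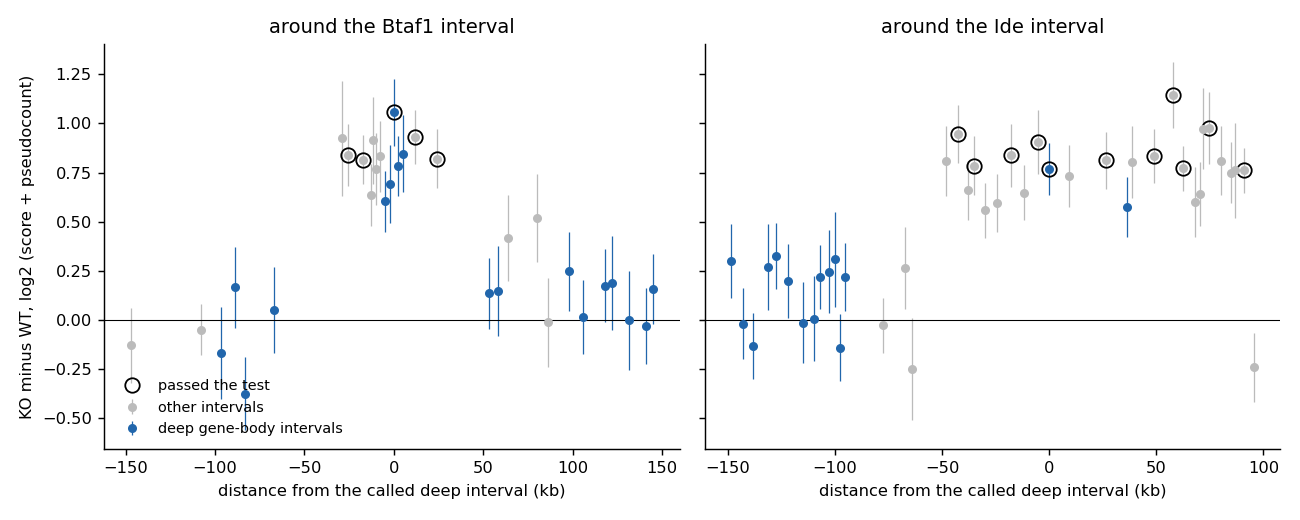
KO minus WT change with its standard error (y axis, log2 of score plus pseudocount) for intervals within 150 kb of the called deep interval of Btaf1 (left) and of Ide (right), against distance (x axis, kb). Deep intervals are dark, other intervals light, and a ring marks those that passed. Each stretch was bounded as a run of changes above 0.5, and the next interval on either side lies at or below 0.14. Beyond the Btaf1 stretch the change reaches 0.52 again at 80.1 kb.

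As a whole the deep intervals moved little with genotype. Their median KO minus WT change was -0.030 (log2), against -0.046 over all intervals and -0.099 at gene ends. Leaving out KO PGE2 replicate 2 brought it to -0.0036, and with vehicle and AA alone it was 0.012, so it had no stable sign. Deep intervals with an annotated start had a median of -0.093 and those with a CpG-rich start -0.13, and those without a start -0.029. Under quantile normalization, median centring, without KO PGE2 replicate 2 and with vehicle and AA alone, the intervals with a start stayed between -0.058 and -0.034 and those with a CpG-rich start between -0.097 and -0.065. In the same 4 settings all deep intervals lay between -0.0036 and 0.012, and intervals at gene ends between -0.065 and -0.048. The change of the deep intervals with a start was thus not particular to them. These classes differ in width, and no change at matched widths is given. Of the 689 with a start, 1 passed (Tsc22d1).

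The lists differed in the same comparison. The median changes were -0.11 for Hippo, TEAD and AP-1 hosts (193 deep intervals, 1 passed, lower) and -0.079 for gut epithelial hosts (847, 0 passed), and both stayed negative in the 4 settings (-0.10 to -0.068 and -0.044 to -0.028). Neuronal hosts had 0.011 (1366, 1 passed, higher) and fibroblast, immune and endothelial hosts 0.052 (353, 0 passed), both positive in the 4 settings (0.019 to 0.046 and 0.048 to 0.086). The AA and fatty acid list (-0.043) and the growth factor list (-0.054) stayed negative but came to -0.0033 and -0.0082 at the least. Wnt (-0.046), PGE2 and cAMP (-0.037), fragile-site (-0.023) and chromatin hosts (-0.020) changed sign in at least 1 setting. The list medians are descriptions and were not tested.

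No deep interval passed in any of the 4 comparisons of a treatment with vehicle, in AA against PGE2 in WT, or in the 2 interactions that ask whether KO and WT responded differently. The percentage passing over all intervals was likewise 0 in each. At an unadjusted p under 0.05 the share of deep intervals was 4.51% for AA in WT (4.56% of all intervals), 5.70% for PGE2 in WT (5.8%), 5.44% for AA against PGE2 in WT (5.27%), 3.80% for AA in KO (3.74%), 8.26% for PGE2 in KO (8.68%), 4.10% for the AA interaction (4.14%), 6.46% for the PGE2 interaction (6.42%) and 4.56% for KO against WT with vehicle (4.55%). Each share was near that of all intervals. Comparisons with vehicle in 1 genotype share its vehicle libraries.

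PGE2 in KO gave the widest movement. There 3431 deep intervals were lower and 976 higher at an unadjusted p under 0.05, with a median change of -0.14 (log2), against -0.15 over all intervals. This comparison rests on the 2 KO PGE2 libraries, 1 of which is the library that stood apart. The lowest adjusted p of a deep interval was 0.0561, shared by 3. The Smo interval (chr6:29747487-29749343), in the gene of the Hedgehog transducer Smoothened, scored 0.675 and 0.631 with vehicle, 0.929 and 0.951 with AA, and 1.20 and 1.15 with PGE2 in KO. In WT it scored 1.01 and 0.843, 0.601 and 0.907, and 1.23 and 1.06. The KO change with PGE2 was 0.80 ± 0.12 (SE, log2, limma adjusted p = 0.0561), the change with AA 0.49 ± 0.12 (limma adjusted p = 1.00), and the AA interaction 0.79 ± 0.17 (limma adjusted p = 1.00).

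The other 2 at that value were in 2210408I21Rik, where KO PGE2 scored 5.72 and 13.0 against 3.42 and 3.76 with vehicle, and in Col19a1 (chr1:24299289-24299965). In Col19a1, KO PGE2 replicate 1 is listed at 0 and replicate 2 at 0.0169, against 0.169 and 0.432 with vehicle. The interval in Tec, a tyrosine kinase (chr5:72839373-72840537), was likewise listed at 0 and at 0.0272, against 0.172 in both vehicle libraries (limma adjusted p = 0.224). Whether any deep interval passed depended on the processing as well as on which libraries entered, as described below. A fit without 1 of the KO PGE2 replicates has 1 library in that group.

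In WT the leading deep intervals did not pass. With AA, Rasal2 (a Ras GTPase-activating protein, chr1:157344904-157345880) scored 0.253 and 0.320 against 0.0312 and 0.0481 with vehicle, and Ncoa1 (a nuclear receptor coactivator, chr12:4377772-4378566) 0.195 and 0.156 against 0.0481 and 0.0228. Nckap5 and Naaladl2 went the other way, from means of 0.186 and 0.283 with vehicle to 0.0257 and 0.0715. All 4 had a limma adjusted p of 1.00. Of the other deep intervals of the same genes, 26 of 55 in Rasal2, 21 of 34 in Ncoa1, 58 of 107 in Nckap5 and 14 of 22 in Naaladl2 had the sign of the named one.

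With PGE2 in WT, 3110009E18Rik (chr1:120139765-120140498) had a limma adjusted p of 0.494. It scored 0.105 and 0.0935 against 0.409 and 0.373 with vehicle, and its other 7 deep intervals all had a negative change, with a median of -0.28. Over all deep intervals 48.0% had a positive change, and intervals of 1 host share the same libraries. Vav2, a guanine nucleotide exchange factor, scored 0.0817 and 0.0581 against 0.456 and 0.210 (limma adjusted p = 0.558). Pus10, a pseudouridine synthase, and an interval in Fhit had the smallest p among higher values (both limma adjusted p = 0.697). Between AA and PGE2 in WT, Nrg4, an epithelial growth factor that binds ErbB4 (chr9:55249686-55251706), scored 0.275 and 0.267 with AA against 0.106 and 0.114 with PGE2. The other 4 deep intervals of Nrg4 shared the sign (median 0.20), as did 48.8% of all deep intervals. The limma adjusted p of the Nrg4 interval was 0.735, as was that of Zc3hav1, and in the other direction Atp2b1 (0.676) and Ptpro (0.735) led.

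In KO with AA, Tnrc6a, a protein of the RNA silencing complex, and Patj, a polarity protein, were the leading lower intervals, and both held a start of their host. Tnrc6a (chr7:123123127-123124521) scored 0.0810 and 0.0943 against 0.255 and 0.310 with vehicle, and Patj (chr4:98545445-98546763) 0.0876 and 0.113 against 0.259 and 0.303. Besides Smo, the leading higher interval was in Mindy4, a deubiquitinase (0.319 and 0.175 against 0.0914 and 0.0280). All had a limma adjusted p of 1.00. In Patj the 2 KO vehicle libraries stood above the other 10 (0.0876 to 0.168).

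For KO against WT with vehicle alone, Ptprt, a receptor phosphatase (chr2:161661729-161662478), had 0.0743 and 0.0959 against 0.404 and 0.271 (limma adjusted p = 0.223). Of its other 40 deep intervals 30 were likewise lower, while 49.4% of all deep intervals were higher. Cdk8, a kinase of the Mediator complex (chr5:146260850-146261872), had 0.145 and 0.221 against 0.518 and 0.398 (limma adjusted p = 0.406). Ncoa1 (adjusted p = 0.460 by limma) and Ide (0.875) led the higher ones. For the interactions, the leading deep intervals reported here were Slc14a1 (higher) and Arhgap5 and Wwp1 (lower) besides Smo with AA, and Lpar1 (higher) and Col19a1 and Zranb3 (lower) with PGE2. Their limma adjusted p ran from 0.333 (Col19a1) to 1.00.

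Among the lists, no deep interval passed in any treatment comparison or interaction. With AA in WT the list medians ran from -0.058 (neuronal) to 0.013 (growth factor), around -0.030 for all deep intervals. With PGE2 in WT they ran from -0.052 (Wnt) to 0.052 (growth factor), around -0.017. The PGE2 and cAMP list, which holds the enzymes and effectors of the pathway, had -0.056 with AA and -0.033 with PGE2 in WT. In that list 25 deep intervals were higher and 16 lower with PGE2 at an unadjusted p under 0.05 (5.73% of 715, against 5.8% of all intervals). In KO with PGE2 every list was negative, from -0.19 (fragile-site genes) to -0.093 (fibroblast, immune and endothelial), as were all deep intervals (-0.14).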

How the data were processed

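The authors deposited a table of peak scores, which are signal values for each called interval in each of 12 H3K27ac CUT&RUN libraries, with intervals from SEACR and from MACS2. Per the submitters' processing notes, SEACR and MACS2 were used on mm10. No source used here states the aligner, the caller settings or how scores were normalized, and the files hold no read depth. SEACR intervals were placed against 20661 protein-coding gene spans, starts and microRNAs of RefSeq on GRCm38.p6.

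Scores were tested as log2(score + 0.0579), the pseudocount being the 10th percentile of the non-zero scores, so changes at low scores are understated. All 166471 intervals above the pseudocount in at least 2 libraries entered 1 limma fit (limma 3.58.1, R 4.3.3) with a mean for each of the 6 groups, a trended prior, 6 residual degrees of freedom and two-sided tests. p-values were adjusted by Benjamini-Hochberg over all of these intervals, with a threshold of 0.05. Of the deep intervals 53331 entered the fit and 11 did not. Medians of classes and lists were taken per library in Python 3.11.15. The fit was tested on simulated data.

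Intervals were named by rule: up to 5 of smallest p per comparison and direction among those that passed without overlap of the compared libraries, or the 2 of smallest p where none passed, and the 10 highest mean scores. Hosts with most deep intervals or extreme medians, internal starts and the strongest interval of each list were named likewise. The members and lists were chosen with earlier results of these data known. The alternatives were another normalization, filter, pseudocount, prior, replicate block, distance or width limit, each library left out, and, chosen after seeing the data, vehicle and AA libraries alone. Sequences of the intervals themselves were not used here. One interval that the naming rule picked is not reported here.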

Additional observations from a re-analysis of the deposited data

Results flagged for a closer look

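In 54 sets of 6 libraries of 1 genotype, the highest or lowest library was compared with the others by Dixon's ratio, for which chance alone gives about 1 in 20. There were 7 sets with a library far from the others, and in 6 of them it was KO PGE2 replicate 2. Among KO libraries it had the lowest median of all deep intervals (0.0928, against 0.112 to 0.120), of those with a start of their host (0.1105, against 0.145 to 0.157) and of those with no annotated start (0.0926, against 0.112 to 0.120). It was also the lowest at the interval in Cers6 (0.168, against 0.237 to 0.268). At 2 of the strongest intervals it was instead the highest, in 2210408I21Rik (13.0, against 2.58 to 5.72) and in Lama1 (1.55, against 0.477 to 0.718). In the remaining set, WT AA replicate 1 was the lowest WT library at the interval in Btaf1 (0.0182, against 0.0684 to 0.0938).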

How the results depend on the processing

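The count of deep intervals that passed for KO minus WT (12) became 19 with a pseudocount 4 times larger, whose filter left 2657 deep intervals (11 with that pseudocount and the main filter, chosen after seeing the data), 0 without a trended prior, 4 with vehicle and AA libraries alone, 7 beyond 20 kb from gene ends and 7 at widths of 1000 to 3000 bp. Leaving out 1 library gave 1 to 287. Differences between replicates 1 and 2 correlated between groups at -0.024 to 0.0097. Libraries of the same group had a mean Spearman correlation of only 0.301 over the deep intervals. These values thus cannot show whether replicate numbers pair the samples. With the replicate block the count was 8, and quantile normalization, median centring, no filter and a pseudocount 4 times smaller gave 8 to 15. The count for KO PGE2 minus vehicle (0) became 1 with quantile normalization, 1 with median centring, 2 with the larger pseudocount (1 with the main filter) and 3 with the replicate block, and 0 to 32 with 1 library left out (2 and 1 without WT AA replicates 1 and 2). The PGE2 interaction gave 0 to 4, giving 4 when KO PGE2 replicate 1 was dropped and 1 when replicate 2 was. The other 6 counts of 0 stayed at 0 in all 25 alternatives of each. The gap between deep and gene-end intervals (-0.18, log2) was -0.23 with the smaller pseudocount under either filter, -0.025 with the larger and -0.090 with the larger and the main filter, and -0.11 at matched widths. The KO minus WT difference of the deep medians (-0.024, log2) turned to 0.0092 with quantile normalization, 0.011 with median centring and 0.012 without KO PGE2 replicate 2, and was -0.092 with the larger pseudocount (-0.011 with the main filter). With 1 library left out it ran from -0.036 to 0.012. The gaps to intergenic intervals and with distance kept within 1 SD throughout. No interval named from a comparison changed direction in the alternatives run for it, but each KO minus WT call missed the threshold in at least 5 of them. Except where fewer libraries or intervals entered, the cause was not tested. With 2 libraries a group and unknown depth, small changes at low scores could not be resolved. The counts in this section are of deep intervals, and the matching shares over all intervals are not given.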
